A study of Mus musculus with 12 samples.

Results

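Transcripts of insulin-like growth factor 1 (IGF1), its receptors and its binding proteins were followed in samples labelled as mouse bone endothelial cells (BECs). The set held 9 genes, chosen by name and matched by gene symbol to the Ensembl IDs of a table of 37620 genes. It comprised the ligand gene Igf1, the receptor genes Igf1r and Igf2r, and the binding protein genes Igfbp2, Igfbp3, Igfbp4, Igfbp5, Igfbp6 and Igfbp7. All 9 were found in the table.

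RNA-seq had been carried out on samples labelled as BECs, from female and male mice of the inbred strain labelled c57/Bl6, at 2 and 65 weeks of age. Each of the 4 groups held 3 libraries, 12 in all, and no treatment or engineered allele is named for any of them. The labels give freshly isolated cells of the tibia purified by endomucin, a sialomucin on the surface of capillary endothelium. The methods describe capture with antibody-coated magnetic beads from tibiae and femurs, and a choice of the samples with the best RNA in each set. No source states that the libraries of a group came from separate animals, so the p-values measure the spread between these samples, which may be technical.

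IGF1 is made by the liver and locally in many tissues, bone included, and acts through IGF1R, a receptor tyrosine kinase that signals through IRS adaptors, PI3K and AKT. IGF2R, also the cation-independent mannose 6-phosphate receptor, takes up IGF2 and sorts lysosomal enzymes, and does not signal as IGF1R does. IGF-binding proteins hold IGFs in the circulation and in matrix, and can restrain or prolong their action, and proteases such as PAPPA release the IGF again by cutting the binding protein. IGFBP7 binds IGFs only weakly and is known as a protein of vascular basement membranes.

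The libraries held 35012947 to 38289171 counts in 2-week females and 36335541 to 44569600 in 2-week males. Those of 65 weeks were shallower, with 29049031 to 34088694 in females and 26044743 to 27323682 in males. Levels are given as CPM, each gene's count scaled to the total of its library. The endothelial label was compared with 19 endothelial markers. Their summed level was 3905 to 7127 CPM at 2 weeks and 268 to 389 CPM at 65 weeks. For 19 of 19 every 65-week library lay below every 2-week library of its sex. Such a lack of overlap, in either direction, held for 69.2% of all genes tested in females and 65.4% in males. Cdh5, which encodes the junction protein VE-cadherin, averaged 590 and 737 CPM in young females and males but 11.8 and 12.7 CPM in old ones, and Emcn, the gene of endomucin itself, averaged 147 and 197 CPM and then 5.0 and 5.6 CPM. The 65-week libraries went against their label in so far as defining endothelial transcripts were low, although none of the 19 was at 0 in every library. The 2-week libraries also held high levels of transcripts that mark other cell types, given below with the marker lists. In such bulk samples fewer cells of a type and less RNA per cell cannot be told apart. Male 65-week replicate 3 stood apart by 4.49 CPM of the female-specific transcript Xist, against 0 to 0.110 CPM in the other 5 male libraries and 95.1 to 185 CPM in the females, so the results below that turned on it are given with and without it.

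Promoters are shown for the genes whose transcripts differed most between the ages and for the receptor gene that rose. All 9 genes matched the RefSeq promoter table of build GRCm38.p6, which covers 250 bases before to 50 after the annotated start. Capitals mark the TATA box letters TATAAA and the GC box letters GGGCGG, each searched on both strands. Such letters are a description, not a binding site.

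Igfbp2 (chr1:72824230-72824529, plus strand): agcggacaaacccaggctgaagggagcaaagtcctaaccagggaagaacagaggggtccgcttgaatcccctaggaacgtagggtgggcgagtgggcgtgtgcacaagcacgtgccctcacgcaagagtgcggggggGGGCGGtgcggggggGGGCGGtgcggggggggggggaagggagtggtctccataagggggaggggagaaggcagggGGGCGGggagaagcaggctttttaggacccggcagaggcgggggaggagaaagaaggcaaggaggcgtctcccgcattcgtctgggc
Igfbp5 (chr1:72874816-72875115, minus strand): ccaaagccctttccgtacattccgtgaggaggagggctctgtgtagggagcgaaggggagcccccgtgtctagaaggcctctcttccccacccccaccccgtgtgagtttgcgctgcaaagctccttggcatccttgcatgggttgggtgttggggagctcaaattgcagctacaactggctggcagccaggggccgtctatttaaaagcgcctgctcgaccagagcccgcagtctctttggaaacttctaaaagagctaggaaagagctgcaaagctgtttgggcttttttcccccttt
Igfbp3 (chr11:7213874-7214173, minus strand): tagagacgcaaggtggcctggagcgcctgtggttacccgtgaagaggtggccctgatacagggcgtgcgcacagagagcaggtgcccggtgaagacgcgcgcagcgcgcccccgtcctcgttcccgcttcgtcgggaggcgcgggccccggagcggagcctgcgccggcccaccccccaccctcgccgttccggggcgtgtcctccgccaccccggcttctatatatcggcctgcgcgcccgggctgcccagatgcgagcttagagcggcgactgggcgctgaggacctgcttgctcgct
Igfbp4 (chr11:99040994-99041293, plus strand): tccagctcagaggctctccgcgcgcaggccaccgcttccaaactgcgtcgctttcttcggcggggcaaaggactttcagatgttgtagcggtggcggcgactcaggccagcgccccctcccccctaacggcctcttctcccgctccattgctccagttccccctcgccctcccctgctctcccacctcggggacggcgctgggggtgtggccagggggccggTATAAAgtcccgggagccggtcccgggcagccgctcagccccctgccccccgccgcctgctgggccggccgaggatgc
Igf1r (chr7:67952007-67952306, plus strand): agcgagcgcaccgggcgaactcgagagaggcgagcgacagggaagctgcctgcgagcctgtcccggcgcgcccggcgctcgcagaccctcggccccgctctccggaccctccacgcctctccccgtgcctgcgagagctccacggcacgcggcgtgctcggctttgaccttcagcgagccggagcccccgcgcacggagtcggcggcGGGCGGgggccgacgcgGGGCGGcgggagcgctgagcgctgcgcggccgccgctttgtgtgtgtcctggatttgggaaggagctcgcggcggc

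TATAAA stood in 13.62% and GGGCGG in 35.66% of all 32851 promoters of this length. The Igfbp4 promoter held 1 TATA box, the Igf1r promoter 2 GC boxes and this Igfbp2 promoter 3, and the Igfbp3 and Igfbp5 promoters held neither. A further Igfbp2 promoter of the table (chr1:72825137-72825436, plus strand), not printed, held 0 GC boxes and 14 CpG dinucleotides. The number of CpG dinucleotides was 18 for the printed Igfbp2 promoter, 10 for Igfbp5, 37 for Igfbp3, 27 for Igfbp4 and 48 for Igf1r, against a median of 7 and quartiles of 3 and 20 over all promoters. Igfbp2 (GRCm39 chromosome 1, 72863606 to 72891634, plus strand) and Igfbp5 (chromosome 1, 72897091 to 72914043, minus strand) are neighbours whose 3′ ends lie 5456 bp apart. Igfbp3 (chromosome 11, 7156086 to 7164179, minus strand) lies 3539 bp from Igfbp1 in the same arrangement.

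The first question was how the IGF genes differ between 2 and 65 weeks within a sex. In females 7 of 9 tested members differed, 6 lower and 1 higher at 65 weeks, by the edgeR quasi-likelihood test at a Benjamini-Hochberg adjusted p under 0.05. In males 7 of 8 tested members differed, again 6 lower and 1 higher, and they were the same 7 genes. Igf1, Igfbp2, Igfbp3, Igfbp4, Igfbp5 and Igfbp7 were lower and Igf1r was higher. The background was wide, since 59.7% of 15120 genes differed in females, 29.5% lower and 30.2% higher, and 55.5% of 14959 genes differed in males, 28.5% lower and 27% higher. The median log2 change of the tested members was −2.35 in females and −2.90 in males, against 0.0056 and 0.0080 over all genes tested. The members were chosen with earlier results of these data known, so this contrast is a description only. Scaling by library totals in place of TMM shifted the median of all genes by −0.14 in females and −0.12 in males, and moved the share of calls that were higher from 50.6% to 40.2% in females and from 48.7% to 40.4% in males. The 7 members kept their direction and their call under that scaling in both sexes.

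**Figure D1:**
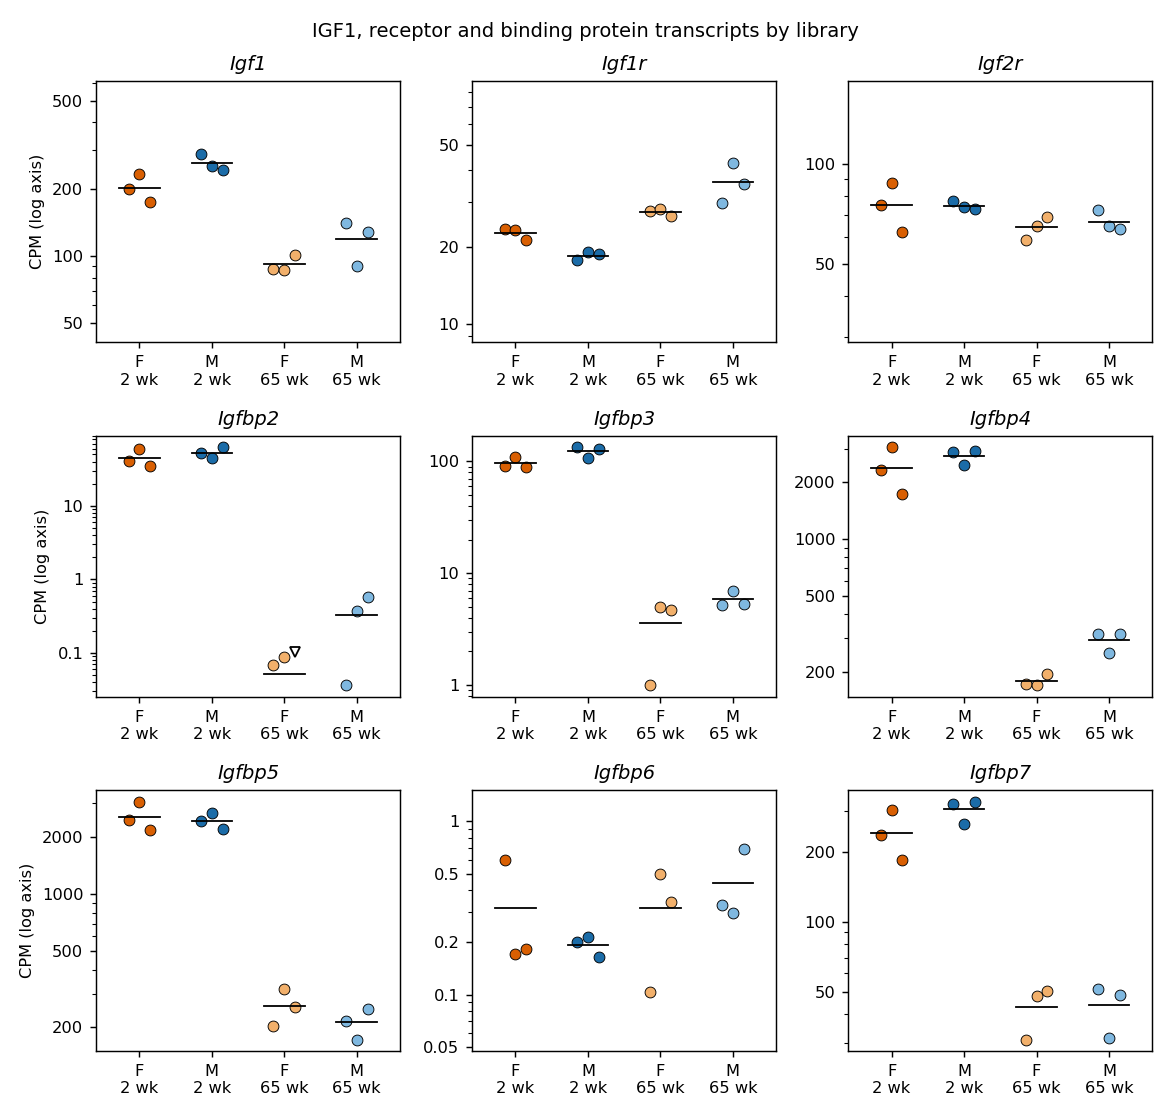
CPM of each of the 9 genes on a log axis, with 1 point per library and a line at the mean of the 3 libraries of each group (F, females, M, males; wk, weeks). The open triangle in the Igfbp2 panel marks a library with 0 counts, drawn at the level of 3 counts. Igfbp2, Igfbp3, Igfbp4, Igfbp5 and Igfbp7 lie lower in all 6 libraries of 65 weeks than in any library of 2 weeks, and Igf1r lies higher.

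Igf1 (ENSMUSG00000020053, GRCm39 chromosome 10, 87693642 to 87772904, plus strand) encodes the ligand. It was measured at 201, 234 and 176 CPM in 2-week females and at 87.3, 86.8 and 101 CPM in 65-week females. In males it was at 289, 253 and 245 CPM at 2 weeks and at 142, 89.8 and 128 CPM at 65 weeks. The ages did not overlap in either sex. The log2 change was −1.01 (SE 0.111, edgeR adjusted p = 0.000124) in females and −1.02 (SE 0.176, edgeR adjusted p = 0.00196) in males, and the interaction of sex and age was −0.00056 (SE 0.229, edgeR adjusted p = 1.00).

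Igf1r (ENSMUSG00000005533, chromosome 7, 67601518 to 67883416, plus strand), the gene of the signalling receptor, was at 23.5, 23.2 and 21.2 CPM in 2-week females and at 27.6, 28.2 and 26.3 CPM in 65-week females. Males gave 17.7, 19.0 and 18.7 CPM at 2 weeks and 29.6, 42.4 and 35.2 CPM at 65 weeks. Every 65-week library lay above every 2-week library of its own sex. Igf1r rose by 0.41 on the log2 scale in females (SE 0.0844, edgeR adjusted p = 0.00356) and by 1.07 in males (SE 0.144, edgeR adjusted p = 0.000559). Across the alternative settings the female value ran from 0.27 to 0.44 and the male value from 0.91 to 1.15, and the call held in each. The exons of Igf1r overlap those of Pgpep1l on the opposite strand by 1247 bp, and Pgpep1l had 0 to 12 counts per library.

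Igf2r (ENSMUSG00000023830, chromosome 17, 12901293 to 12988614, minus strand), the gene of the mannose 6-phosphate receptor, ranged from 58.9 to 87.3 CPM over the 12 libraries. The change was −0.08 on the log2 scale in females (SE 0.118, edgeR adjusted p = 0.572) and −0.04 in males (SE 0.105, edgeR adjusted p = 0.755), so no difference was detected. The ages overlapped in females. In males the 2-week libraries, at 72.9 to 77.3 CPM, lay just above those of 65 weeks, at 63.4 to 72.5 CPM. Airn, a noncoding RNA that crosses Igf2r on the opposite strand without shared exon sequence, had 0 to 65 counts per library.

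Igfbp2 (ENSMUSG00000039323) encodes a binding protein that carries IGFs in serum and in bone. Females had 40.9, 59.1 and 35.1 CPM at 2 weeks and 0.0688, 0.0880 and 0 CPM at 65 weeks, the latter from 5 counts in 3 libraries. Males had 52.1, 44.3 and 62.4 CPM at 2 weeks and 0.0366, 0.370 and 0.576 CPM at 65 weeks, from 26 counts. The transcript was close to the limit of detection in the old libraries. The ratio of pooled levels, 2 over 65 weeks, was 826 in females (95% interval 354 to 2546) and 162 in males (95% interval 111 to 249), and these exact intervals cover counting error only. The fitted log2 change was −9.47 in females (SE 0.396, edgeR adjusted p = 1.89e-06) and −7.22 in males (SE 0.435, edgeR adjusted p = 9.47e-06). These values ranked 18 of 15120 and 112 of 14959 from the most negative. The female value was −10.09 without female 65-week replicate 2 and the male value was −7.88 without male 65-week replicate 3.

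Igfbp3 (ENSMUSG00000020427), whose product is the main carrier of IGFs in serum, was at 91.5, 110 and 88.2 CPM in 2-week females and at 0.998, 5.02 and 4.71 CPM in 65-week females. The males had 133, 107 and 128 CPM at 2 weeks and 5.23, 6.89 and 5.34 CPM at 65 weeks. Female 65-week replicate 1 was the lowest library, well under the others of its group. The log2 change was −4.60 in females (SE 0.442, edgeR adjusted p = 6.07e-05) and −4.28 in males (SE 0.163, edgeR adjusted p = 1.43e-06).

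Igfbp4 (ENSMUSG00000017493, chromosome 11, 98932064 to 98945218, plus strand) encodes an inhibitory binding protein that PAPPA cuts. Its levels were 2316, 3042 and 1719 CPM in 2-week females and 172, 170 and 195 CPM in 65-week females. In males they were 2892, 2445 and 2922 CPM at 2 weeks and 316, 250 and 316 CPM at 65 weeks. No 65-week library reached a level near that of any 2-week library. Igfbp4 changed by −3.58 in females (SE 0.191, edgeR adjusted p = 4.13e-06) and by −3.11 in males (SE 0.150, edgeR adjusted p = 3.51e-06) on the log2 scale.

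Igfbp5 (ENSMUSG00000026185), whose product binds bone mineral and matrix, was at 2450, 3043 and 2154 CPM in 2-week females and at 203, 318 and 257 CPM in 65-week females. Males had 2421, 2649 and 2184 CPM at 2 weeks and 215, 173 and 249 CPM at 65 weeks. The sexes overlapped at each age and the ages did not overlap. The log2 change was −3.16 in females (SE 0.191, edgeR adjusted p = 6.87e-06) and −3.40 in males (SE 0.164, edgeR adjusted p = 3.52e-06). The log2 change of Igfbp5 was less than that of its neighbour Igfbp2 in each sex, and the difference between the genes was not tested.

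Igfbp7 (ENSMUSG00000036256, chromosome 5, 77493130 to 77555931, minus strand) was at 235, 304 and 185 CPM in 2-week females and at 31.1, 47.7 and 50.4 CPM in 65-week females. The males had 320, 265 and 328 CPM at 2 weeks and 51.5, 31.7 and 48.4 CPM at 65 weeks. The ages did not overlap in either sex. Igfbp7 changed by −2.35 in females (SE 0.223, edgeR adjusted p = 5.75e-05) and by −2.68 in males (SE 0.198, edgeR adjusted p = 2.41e-05), the smallest log2 falls among the 5 binding protein genes that fell. Its exons overlap those of Polr2b on the opposite strand by 747 bp, and Polr2b, a subunit of RNA polymerase II, averaged 122 and 118 CPM in young females and males and 105 and 107 CPM in old ones. Whether counting used strand is not given in the sources used here, so reads of the shared stretch may have been assigned to either gene or to none.

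Igfbp6 (ENSMUSG00000023046, chromosome 15, 102052697 to 102057953, plus strand), the gene of a binding protein that prefers IGF2, was scarce throughout, with 3 to 22 counts per library. It ranged from 0.103 to 0.691 CPM over the 12 libraries. In females the log2 change was 0.14 (SE 0.705, edgeR adjusted p = 0.879), with overlapping ages. In males the gene did not pass the filter on low counts and was not tested. The male libraries had 0.165 to 0.215 CPM at 2 weeks and 0.296 to 0.691 CPM at 65 weeks, a pooled ratio of 2 over 65 weeks of 0.449 (95% exact interval 0.256 to 0.777, counting error only).

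The ages did not overlap for 7 of 9 members in females and, counting the untested Igfbp6, for 9 of 9 in males. Over all genes tested this held for 69.2% in females and 65.4% in males, so lack of overlap was usual in this series. Other cell type markers moved with age as well, as the plot of changes in genes and marker lists shows. A marker gene is counted as lower or higher where the ages did not overlap in the same direction in both sexes, which these shares do not require. The lists were not tested. Summed marker levels were 5.32-fold higher at 2 weeks for marrow stromal cells (10 of 10 genes lower at 65 weeks in both sexes), 30.9-fold for osteoblasts (10 of 10), 103-fold for chondrocytes (10 of 10), 11.5-fold for smooth muscle and pericytes (7 of 8), 7.70-fold for megakaryocytes (6 of 6) and 18.3-fold for endothelium. In CPM the stromal sum ranged from 6201 to 9711 at 2 weeks and from 1169 to 2010 at 65 weeks, and the osteoblast sum from 7101 to 10379 and from 167 to 354. The chondrocyte sum ranged from 399 to 663 CPM and from 2.57 to 7.98 CPM, with 1 of its 10 genes at 0 in all 65-week libraries of each sex. Summed levels were higher at 65 weeks for B cells (19.1-fold, 7 of 7 genes higher in both sexes), neutrophils (3.80-fold, 6 of 8) and plasma cells (3.40-fold, 3 of 6 higher and 1 lower). The ratio of 65 to 2 weeks was 1.11 for macrophages, where 3 of 10 genes were higher. For erythroid cells it was 1.02, where 0 of 8 genes were lower and 0 of 8 higher in both sexes. The mean endothelial sum at 2 weeks, 5312 CPM in females and 6532 CPM in males, was not the highest. Osteoblast (8408 and 8359 CPM), stromal (7772 and 8879 CPM) and erythroid sums (39939 and 32904 CPM) were above it in both sexes. The neutrophil sum was above it in females only, and the sums of the remaining lists were below it. The 65-week endothelial means were 342 and 306 CPM, against 39780 and 34726 CPM for erythroid cells and 12004 and 9906 CPM for B cells. Only the chondrocyte, smooth muscle and megakaryocyte sums, and the osteoblast sum in females, were then below the endothelial sum. The lists hold different genes, so their sums do not give shares of cells. Endothelial, stromal, osteoblast and smooth muscle cells are all known to express one or more of the binding protein genes, and the part of these cell types in the changes was not tested.

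**Figure D2:**
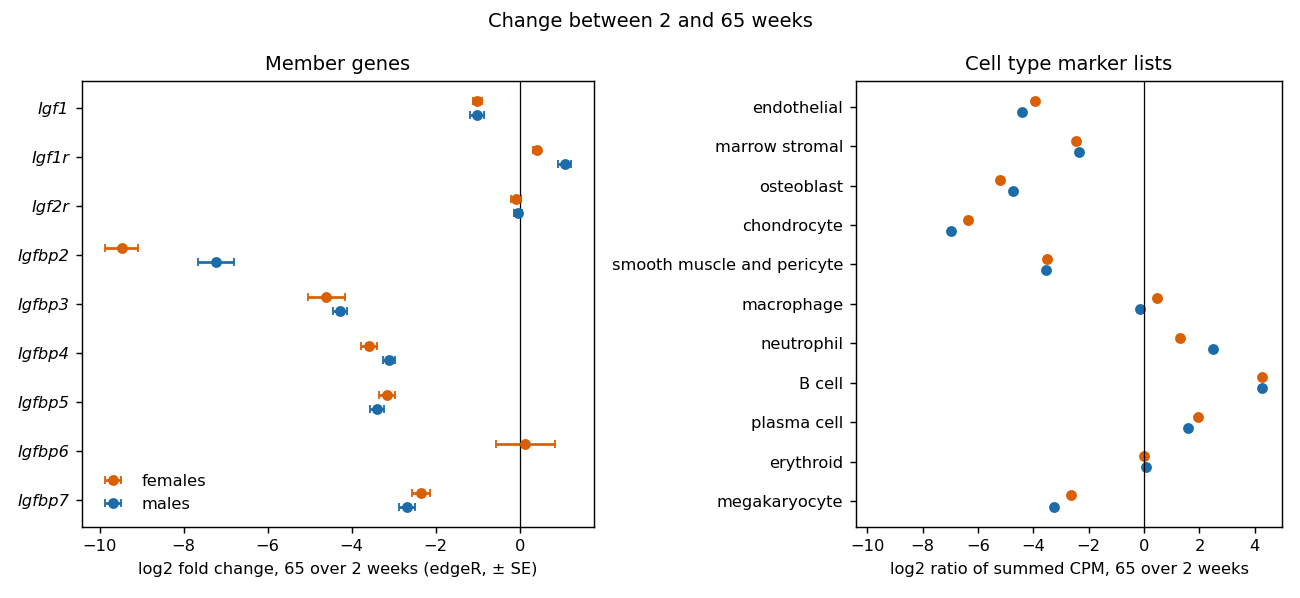
Left, log2 fold change of each member between 2 and 65 weeks in females (orange) and males (blue), with error bars of 1 SE; Igfbp6 was not tested in males. Right, log2 ratio of the summed CPM of 11 cell type marker lists, without error bars. The binding protein genes other than Igfbp6 lie between −2.35 and −9.47 in females, and the endothelial, stromal, osteoblast, chondrocyte, smooth muscle and megakaryocyte lists lie below 0 in both sexes.

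Which members were most abundant was read from CPM per kilobase of exon, since genes differ in length. Length was the union of all annotated exons, 5449 bp for Igfbp7, and the transcripts present in these samples may be shorter. The order and the shares below depend on these lengths. At 2 weeks Igfbp4 led at 533 ± 150 (SD, n = 3) in females and 623 ± 60.4 in males, followed by Igfbp5 at 424 ± 75.3 and 403 ± 38.7. These genes overlapped in females and did not in males. Igfbp7 came next at 44.3 ± 10.9 and 55.9 ± 6.35 CPM per kilobase, Igfbp3 at 27.1 ± 3.24 and 34.4 ± 3.97, Igfbp2 at 21.7 ± 6.02 and 25.5 ± 4.38, and Igf1 at 19.9 ± 2.87 and 25.7 ± 2.30. Of these, Igfbp2 overlapped both Igfbp3 and Igf1 in each sex, and Igfbp3 and Igf1 did not overlap. Igf2r at 7.99 ± 1.33 and 7.98 ± 0.240, Igf1r at 1.14 ± 0.0636 and 0.934 ± 0.0355, and Igfbp6 at 0.230 ± 0.177 and 0.141 ± 0.0189 closed the order, with no overlap between neighbours.

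At 65 weeks the order differed. Females had Igfbp5 at 43.1 ± 9.61 and Igfbp4 at 40.5 ± 3.09 CPM per kilobase, which overlapped, and males had Igfbp4 at 66.4 ± 8.56 and Igfbp5 at 35.3 ± 6.34, which did not. Igf1, at 8.97 ± 0.806 in females and 11.7 ± 2.63 in males, now stood above Igfbp7, at 7.90 ± 1.92 and 8.05 ± 1.96, although the libraries overlapped. Igf2r at 6.86 ± 0.547 and 7.14 ± 0.522 overlapped Igfbp7 too. Igf1r at 1.38 ± 0.0470 and 1.81 ± 0.325 overlapped Igfbp3 at 1.00 ± 0.627 and 1.63 ± 0.260. Igfbp6, at 0.228 ± 0.144 and 0.318 ± 0.159, and Igfbp2, at 0.0251 ± 0.0223 and 0.158 ± 0.131, were lowest.

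The 6 binding protein genes together summed to 5291 ± 1195 CPM (SD, n = 3) in females and to 5652 ± 157 CPM in males of 2 weeks. At 65 weeks the sum was 485 ± 69.5 CPM and 557 ± 83.2 CPM respectively. Binding protein transcript per Igf1 transcript, both per kilobase, was 52.4 ± 4.66 in 2-week females and 44.6 ± 3.21 in 2-week males, and 10.4 ± 1.46 and 9.70 ± 1.07 at 65 weeks. Every 65-week library lay below 41.7, the lowest ratio of any 2-week library. Within the sum per kilobase of annotated exon, Igfbp4 and Igfbp5 dominated in every group, as the stacked plot of shares shows. Igfbp4 held 50.4% ± 2.78 and 54.5% ± 3.55 in 2-week females and males, and 44.1% ± 5.97 and 59.5% ± 1.64 at 65 weeks. Igfbp5 held 40.7% ± 2.53 and 35.4% ± 4.47, and then 46.2% ± 5.02 and 31.5% ± 1.70. The share of Igfbp7 was 4.21% ± 0.0661 and 4.89% ± 0.407 at 2 weeks and 8.43% ± 1.12 and 7.12% ± 0.886 at 65 weeks. Igfbp2 had 2.05% ± 0.121 and 2.23% ± 0.343 at 2 weeks, and 0.0279% ± 0.0241 and 0.143% ± 0.112 at 65 weeks. Shares were not tested.

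**Figure D3:**
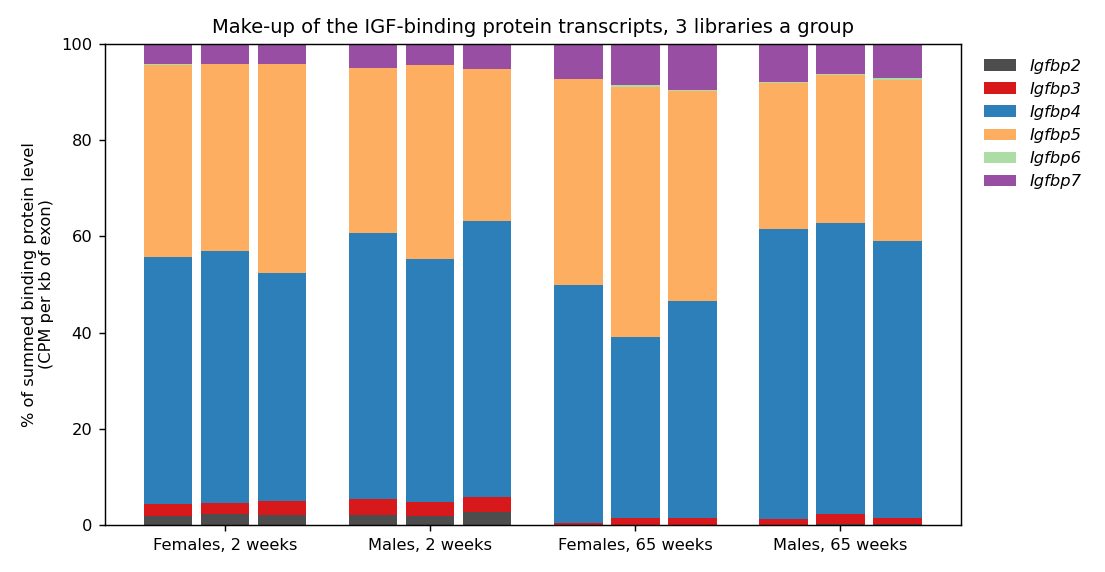
Share of each IGF-binding protein gene in the summed level of the 6 genes, in CPM per kilobase of exon, with 1 bar per library and bars that add up to 100%. Igfbp4 and Igfbp5 fill most of every bar, Igfbp2 and Igfbp3 narrow from 2 to 65 weeks and Igfbp7 widens.

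The second question was whether the members differ between the sexes. At 2 weeks 0 of 8 tested members passed the edgeR test, and 3 had an unadjusted p under 0.05, namely Igf1, Igf1r and Igfbp3. At 65 weeks 0 of 7 passed and 2 had an unadjusted p under 0.05, namely Igf1r and Igfbp4. In the interaction of sex and age 0 of 9 passed, with 2 at an unadjusted p under 0.05, Igf1r and Igfbp2. Few genes of any kind were called, 0.0332% of 15081 at 2 weeks, 0.042% of 14287 at 65 weeks and 0.00635% of 15747 in the interaction. DESeq2 called more, 3.18% of 13123 genes at 2 weeks, 2.84% of 12782 at 65 weeks and 2.32% of 15241 in the interaction, and 1 member in each of the 3 comparisons. These were Igf1r at 2 weeks (log2 −0.32, DESeq2 adjusted p = 0.0473), Igfbp4 at 65 weeks (0.70, DESeq2 adjusted p = 0.000156) and Igf1r in the interaction (0.67, DESeq2 adjusted p = 0.0161).

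Igf1r was lower in all 3 males than in all 3 females at 2 weeks, with means of 18.5 ± 0.701 and 22.6 ± 1.26 CPM (SD, n = 3 each). At 65 weeks it was higher in all 3 males, at 35.7 ± 6.42 against 27.4 ± 0.930 CPM. The log2 difference, male over female, was −0.31 at 2 weeks (SE 0.0788, edgeR adjusted p = 0.213) and 0.37 at 65 weeks (SE 0.141, edgeR adjusted p = 0.414). Their difference, the interaction, was 0.66 (SE 0.168, edgeR adjusted p = 0.164). It was called without male 65-week replicate 3, at 0.72 (edgeR adjusted p = 0.0357), where 4.66% of all genes were called, and in 17 of 19 alternatives it was not.

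Igfbp4 at 65 weeks was at 294 ± 37.9 CPM in males and at 179 ± 13.7 CPM in females, without overlap. The log2 difference was 0.70 (SE 0.128, edgeR adjusted p = 0.147). It was called without male 65-week replicate 3, at 0.68 (edgeR adjusted p = 0.0255), where 5.65% of all genes were called. It was also called with no filter on low counts, at 0.70 (edgeR adjusted p = 0.0362), where 0.516% were, and the adjusted p ran from 0.000156 to 0.604 over its alternatives. At 2 weeks the sexes overlapped for Igfbp4. Igf1 was higher in all males than in all females at 2 weeks, at 263 ± 23.5 against 203 ± 29.3 CPM, with a log2 difference of 0.35 (SE 0.110, edgeR adjusted p = 0.227). Igfbp3 did not overlap between the sexes at 65 weeks either, with a log2 difference of 0.69 (SE 0.505, edgeR adjusted p = 0.723). In all, 2 of 9 members at 2 weeks and 3 of 9 at 65 weeks did not overlap between the sexes, against 21.7% and 15.5% of the genes tested. Of the 9 members 8 were tested at 2 weeks and 7 at 65 weeks.

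**Figure D4:**
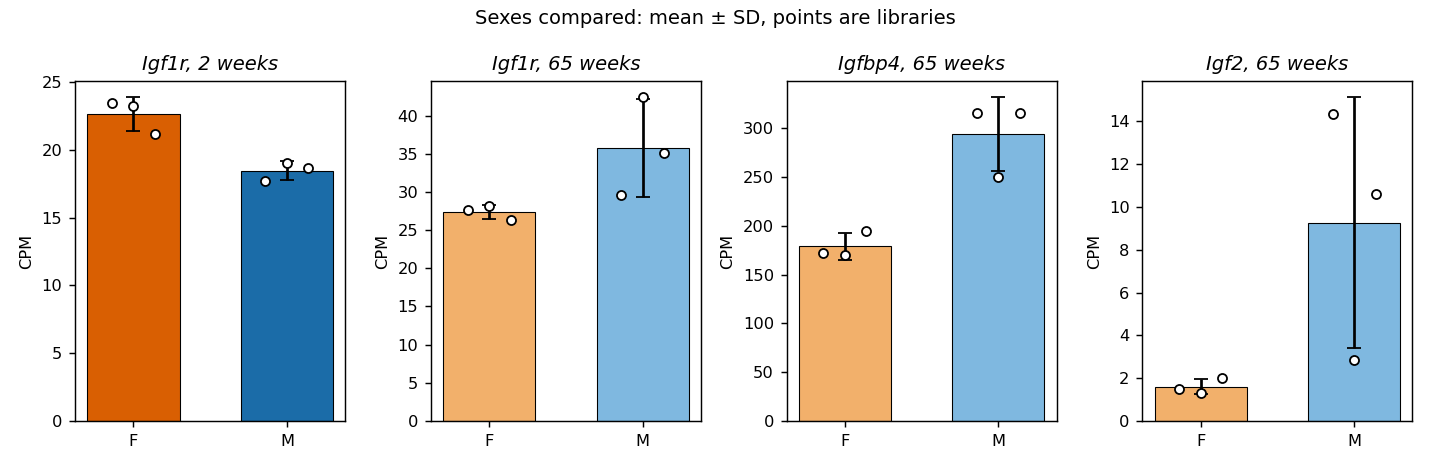
CPM of Igf1r at both ages and of Igfbp4 and Igf2 at 65 weeks in females (F) and males (M), with bars at the mean, error bars of 1 SD and points for the 3 libraries of each group. Males lie below females for Igf1r at 2 weeks and above them in the other panels, with no overlap in any, and none of the 4 differences passed the edgeR test.

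The other genes of the IGF system were taken from a list of 49, of which 47 were tested in each sex. In females 12 were higher and 18 lower at 65 weeks, and in males 11 and 18, with 9 higher and 16 lower in both sexes. Set against these are the shares over all genes, 30.2% higher and 29.5% lower in females, 27% and 28.5% in males, and 22.7% and 24.5% of 14775 genes in both sexes. The median log2 change of those tested was −0.019 in females and −0.086 in males. Between the sexes 0 of 47 passed at 2 weeks, 0 of 41 at 65 weeks and 0 of 47 in the interaction by the edgeR test, with 8, 4 and 8 at an unadjusted p under 0.05. DESeq2 called 0, 2 and 3 of them, against 3.18%, 2.84% and 2.32% of all genes. Of the 9 genes higher in both sexes 8 were genes of PI3K, AKT and mTOR signalling, and of the 16 lower in both sexes 0 were, as the plot of the pathway genes shows.

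Of the 4 other ligand and binding protein genes, Igf2 and Igfals were lower in both sexes. Igf2, the fetal and postnatal growth factor, had 68.4, 97.0 and 54.0 CPM in young females and 57.5, 58.2 and 79.6 CPM in young males. The old females had 1.48, 1.32 and 2.01 CPM and the old males 14.3, 2.85 and 10.6 CPM. The log2 change was −5.37 in females (SE 0.256, edgeR adjusted p = 2.86e-06) and −2.69 in males (SE 0.490, edgeR adjusted p = 0.00246). Each male at 65 weeks had more Igf2 than any female of that age, with a log2 difference of 2.52 (SE 0.544, edgeR adjusted p = 0.173) and an interaction of 2.69 (SE 0.621, edgeR adjusted p = 0.141). Both were called once male 65-week replicate 2, the lowest of these males, was left out, at 2.95 (edgeR adjusted p = 0.0219) and 3.11 (edgeR adjusted p = 0.0421), where 0.102% and 0.0124% of all genes were called. The interaction was also called without male 65-week replicate 3, at 2.65 (edgeR adjusted p = 0.0485), and DESeq2 called the sex difference at 65 weeks (DESeq2 adjusted p = 4.74e-05) and the interaction (DESeq2 adjusted p = 0.0167). The sex difference at 65 weeks was also called with no filter on low counts (2.52, edgeR adjusted p = 0.0317) and with all 12 libraries in 1 model (2.54, edgeR adjusted p = 0.0318, with 1.61% of all genes called). Igfals, the acid-labile subunit that joins IGF and IGFBP3 or IGFBP5 in serum, averaged 1.11 ± 0.231 and 1.40 ± 0.337 CPM in young females and males. In 65-week libraries it had 11 counts in females and 2 counts in males, each time all in replicate 1, with pooled ratios of 9.24 (95% exact interval 4.99 to 19.0) and 55.4 (15.1 to 461). Its call in females (log2 −3.02, SE 0.95, edgeR adjusted p = 0.0249) was lost without any 1 of the 2-week female libraries, at edgeR adjusted p = 0.0543 to 0.072, and its value was −2.40 without female 65-week replicate 2. Without replicate 1 of 65 weeks 0 counts remained in either sex, so that Igfals was at least 23.2-fold lower in females and at least 24.4-fold lower in males against a floor of 3 counts over the group. The fitted values then were −8.21 and −8.60, against −3.02 and −5.50 with all libraries, and values fitted on 0 counts depend on the prior count. Igfbp1 had 0 counts in all 12 libraries and Igfbpl1 had 1 count in each sex at 2 weeks and 0 at 65 weeks, so neither was tested.

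Of 6 genes for proteases of binding proteins and their regulators, 4 were lower in both sexes and 0 higher in either. This and the next counts by role stand against 24.5% lower and 22.7% higher in both sexes over all genes. The roles were not tested as sets. Stc1, which encodes stanniocalcin 1, an inhibitor of PAPPA, changed by −5.33 in females (SE 0.289, edgeR adjusted p = 4.37e-06) and −4.52 in males (SE 0.435, edgeR adjusted p = 9.02e-05), from 9.72 ± 1.61 and 9.71 ± 1.43 CPM to 0.212 ± 0.0786 and 0.386 ± 0.287 CPM. The male value of Stc1 was −5.31 without male 65-week replicate 2. Pappa itself changed by −3.87 on the log2 scale in females (SE 0.217, edgeR adjusted p = 5.08e-06). In males the change of Pappa was −2.86 (SE 0.163, edgeR adjusted p = 7.50e-06). Its means in females and males were 66.9 and 67.9 CPM at 2 weeks and 4.15 and 8.69 CPM at 65 weeks. Htra3, a secreted serine protease, changed by −2.98 (SE 0.247, edgeR adjusted p = 2.85e-05) and −4.49 (SE 0.308, edgeR adjusted p = 1.71e-05). Of 6 growth hormone axis genes 3 were lower in both sexes. Ghr, the growth hormone receptor, fell in females from 42.2 ± 8.96 to 6.06 ± 2.29 CPM and in males from 51.3 ± 3.27 to 6.80 ± 1.34 CPM (edgeR adjusted p = 7.95e-05 and 7.96e-06). Socs2, a feedback inhibitor of that receptor, fell from 19.6 ± 3.41 to 5.03 ± 0.931 CPM and from 26.5 ± 4.18 to 3.90 ± 1.38 CPM (edgeR adjusted p = 6.97e-05 and 6.28e-05).

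Of 7 receptor and adaptor genes 4 were lower and 1 higher in both sexes. Irs1, the insulin receptor substrate that links IGF1R to PI3K, fell in females from 24.9 ± 6.57 to 0.906 ± 0.439 CPM and in males from 24.4 ± 2.50 to 1.49 ± 0.120 CPM (edgeR adjusted p = 1.40e-05 and 1.75e-06). Grb10, an adaptor that restrains insulin and IGF1 receptors, fell from 125 ± 28.7 to 9.69 ± 2.28 CPM and from 148 ± 19.9 to 8.72 ± 3.51 CPM (edgeR adjusted p = 5.84e-06 and 1.29e-05). Grb2, which links receptors to Ras, rose from 152 ± 6.44 to 251 ± 2.81 CPM and from 156 ± 6.82 to 262 ± 62.6 CPM (edgeR adjusted p = 2.42e-05 and 0.00196).

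Among 18 genes of PI3K, AKT and mTOR signalling 8 were higher and 0 lower in both sexes, against 22.7% and 24.5% of all genes. Foxo3, a transcription factor that AKT holds out of the nucleus, rose by 1.03 in females (SE 0.127, edgeR adjusted p = 0.00023) and by 1.23 in males (SE 0.171, edgeR adjusted p = 0.000633) on the log2 scale. Foxo4, of the same family, rose by 0.85 (SE 0.121, edgeR adjusted p = 0.000521) and by 0.96 (SE 0.136, edgeR adjusted p = 0.000716). All 3 genes for IGF2 mRNA-binding proteins were lower in both sexes. Igf2bp3, at 20.8 ± 0.884 and 20.3 ± 0.938 CPM at 2 weeks, had 12 counts in 3 female and 1 count in 3 male libraries of 65 weeks, with pooled ratios of 160 (95% exact interval 91.7 to 311) and 1625 (291 to 64216). The 1 male count lay in replicate 3, and without it 0 counts remained, which gives at least a 366-fold lower level against a floor of 3 counts over the group and a fitted log2 change of −12.45 in place of −10.20. In females the fitted change of −7.14 became −7.84 without 65-week replicate 1 and −6.51 without replicate 2. Igf2bp1 had 112 counts at 2 weeks in each sex and 0 at 65 weeks, so it was at least 31.4-fold lower in females and at least 24.5-fold lower in males against a floor of 3 counts over the group. Of 5 genes of mannose 6-phosphate sorting, the pathway that IGF2R serves, 0 were called the same way in both sexes.

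**Figure D5:**
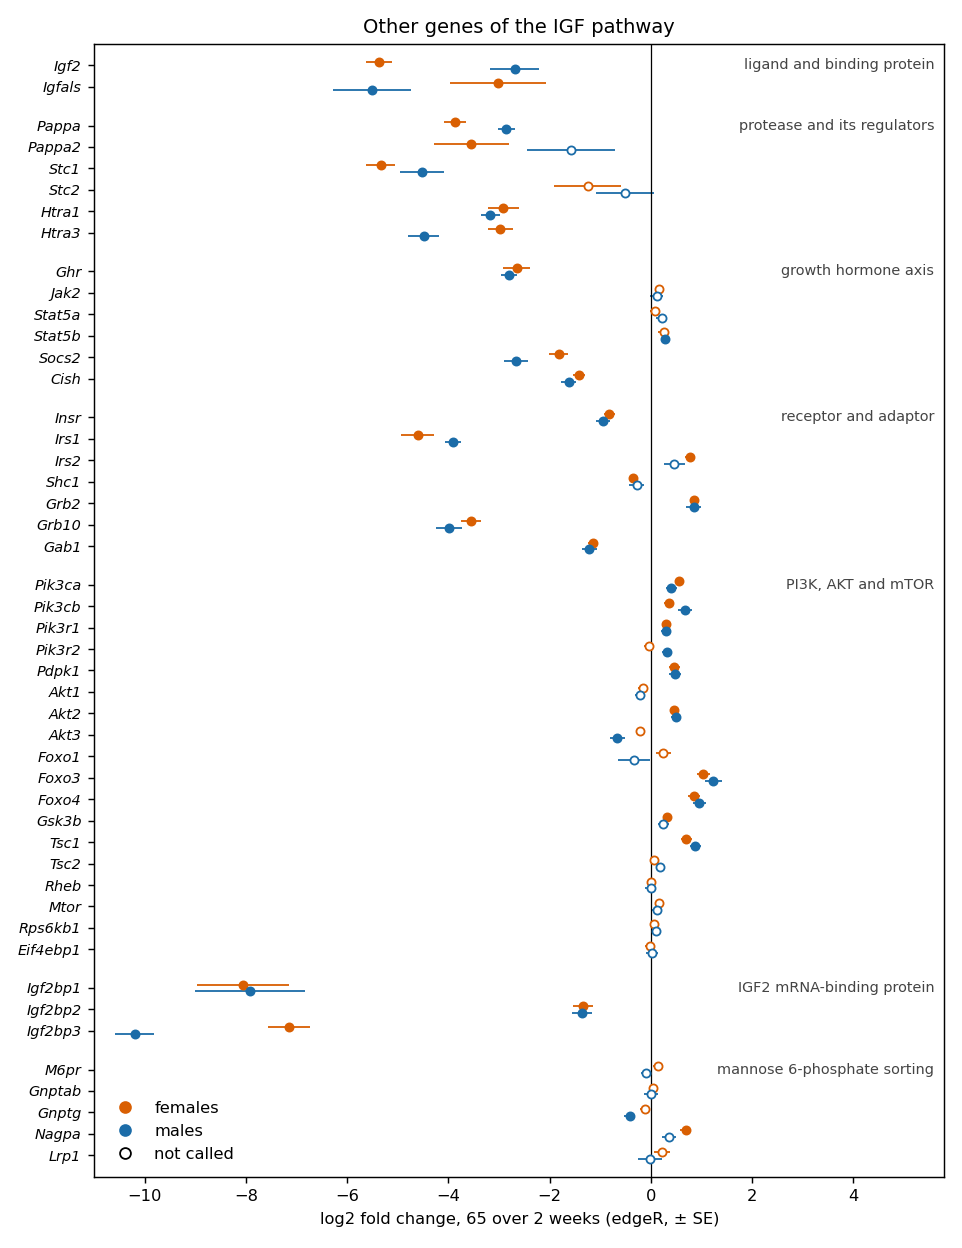
Log2 fold change between 2 and 65 weeks of the 47 tested genes of the IGF pathway list by role, in females (orange) and males (blue), with error bars of 1 SE; filled points passed the edgeR test and open points did not. The growth factor, protease and IGF2 mRNA-binding protein genes lie to the left of 0, and most of the PI3K, AKT and mTOR genes lie at 0 or slightly to its right. Values of Igf2bp1 rest on 0 counts at 65 weeks.

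Genes whose pattern over the 12 libraries was nearest to that of a member were named from 10719 protein-coding genes of at least 5 CPM on average. The measure was the root mean square difference of centred log2(CPM + 0.5) values, in log2 units, and all points share the same libraries and their difference in age. Nearest to Igf1 were Tmem86a (0.108) and Rab12 (0.121). For Igf1r they were Sec22c (0.0942) and Lss (0.122), and for Igf2r Midn (0.0594) and Pex5 (0.0866). Igfbp2 was nearest to Clec14a (0.255) and Col12a1 (0.303), Igfbp3 to Apln (0.299) and Lum (0.315), and Igfbp4 to Olfml3 (0.134) and Gpx8 (0.149). Igfbp5 lay nearest to Pdgfra (0.140) and Osmr (0.159), Igfbp6 to Mob3a (0.199) and Zbtb24 (0.206), and Igfbp7 to Angpt2 (0.144) and Sema6b (0.147). The added 0.5 CPM flattens low values. Igfbp2 averaged 0.0523 and 0.328 CPM in 65-week females and males, and Igfbp6 was scarce at both ages. The genes named as nearest to Igfbp2 and Igfbp6 therefore depend on that added value. Apln, nearest to Igfbp3, averaged 0.563 and 1.02 CPM in 65-week females and males, so that match depends on the added value too. The level of Clec14a averaged 148 and 214 CPM in young females and males and 1.88 and 2.83 CPM in old ones. For Pdgfra these means were 70.3 and 73.7 CPM and then 6.27 and 6.22 CPM, and for Sema6b 35.1 and 44.7 CPM and then 6.97 and 6.77 CPM.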

How the data were processed

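RNA of 12 libraries was sequenced as pairs of 100 nt with a total RNA kit. The labels give the molecule as polyA RNA, and which of these applies was not settled. The deposited values are raw counts per Ensembl gene that the authors did not normalise. The submitters' processing notes name TopHat2, HTSeq and the build mm9, whereas the methods of the study describe STAR, featureCounts and GRCm39, and the accounts were not reconciled. Annotation release, strand setting and handling of multiply mapped reads are not given in the sources used here, so overlapping genes are uncertain. Gene names, coordinates and exon lengths (union of exons) were taken from GENCODE M39 (GRCm39) by Ensembl ID, which held 31052 of 37620 IDs and 99.287% of counts.

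CPM used library totals. Depth is given in the report as the range over the libraries of each group, and a count of 3 was the floor. Tests were fitted over all genes with edgeR 4.0.16 (R 4.3.3), with TMM scaling, genes kept by filterByExpr (minimum count 10) and the quasi-likelihood F test, with Benjamini-Hochberg adjustment and a threshold of 0.05. Ages were compared within the 6 libraries of a sex, sexes within the 6 libraries of an age, and the interaction over 12 libraries, with no covariate. SE was derived from the F statistic. Ratios of pooled counts carry exact 95% intervals. The fits were tested on simulated data.

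All members were named. Of the pathway list, the text names up to 2 genes with the largest rise and up to 2 with the largest fall per role among those called in both sexes, ranked by the smaller absolute change, and every ligand and binding protein gene. Pappa, whose inhibitor Stc1 was named, was added outside this rule. An item of the list is not reported here. Members and lists were chosen with earlier results of these data known. The alternatives were DESeq2 1.42.0, other scalings, no filter, thinning, a replicate block, 12 libraries in 1 model and leaving out each library. Replicates differed by more than sampling noise, with a chi-square per degree of freedom of 24.96 to 95.6.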

Additional observations from a re-analysis of the deposited data

Results flagged for a closer look

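Igf1r was flagged because its libraries lay apart between the sexes in opposite directions at the 2 ages. Lack of overlap between the sexes held for 21.7% of the genes tested at 2 weeks and 15.5% at 65 weeks. Neither sex difference of Igf1r passed the edgeR test. All 3 male libraries lay below all 3 female libraries at 2 weeks and above them at 65 weeks, and the interaction of sex and age had a log2 value of 0.66 (SE 0.168, edgeR adjusted p = 0.164), so it did not pass the test over all genes. Without male 65-week replicate 3 it was 0.72 (edgeR adjusted p = 0.0357), where 4.66% of all genes were called. In 17 of 19 alternatives the interaction was not called. The exon overlap with Pgpep1l, at 0 to 12 counts per library against 679 to 1145 counts of Igf1r, was not tested.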

How the results depend on the processing

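The 7 calls of members with age held in both sexes under each alternative run, with 7 to 7 members called in females and 7 to 8 in males when 1 library was left out. The eighth was Igfbp6 without male 65-week replicate 2 (1.46, SE 0.483, edgeR adjusted p = 0.0389). Between the sexes 0 members became 1 with DESeq2 at 2 weeks, 1 with DESeq2 and 1 with no filter on low counts at 65 weeks, and 1 with DESeq2 in the interaction. Leaving out 1 library gave 0 to 0 members at 2 weeks, 0 to 1 at 65 weeks and 0 to 1 in the interaction. The 1 arose in both cases without male 65-week replicate 3, and the cause was not tested. For age 13 of the named pathway genes, Pappa not among them, were followed singly, and only Igf2 was followed singly between the sexes and in the interaction. Of these 411 values 401 kept their side of the threshold. A call was gained by 7, all of Igf2 between sexes or in the interaction, and lost by 3 (Igfals in females). Over the whole pathway list, up to 2 genes were called between the sexes at 65 weeks and up to 3 in the interaction. Of 618 values of members under alternatives 612 kept their side of the threshold and 6 gained a call. Values of called members never changed sign, and 25 values of 9 uncalled results near 0 did.

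Over all genes, calls between sexes at 2 weeks went from 5 to 417 with DESeq2 and 5 to 11 without 1 library. At 65 weeks they went from 6 to 363 with DESeq2, 254 with 12 libraries in 1 model, 105 with no filter, 10 with library totals and 5 to 830 without 1 library, the highest without male 65-week replicate 3. In the interaction they went from 1 to 353 with DESeq2, 7 with no filter, 0 when thinned and 0 to 750 without 1 library.

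The replicate block gave 7 and 7 members called with age in females and males, and 0 in each comparison of sexes and in the interaction. Same-numbered libraries did not deviate together, with correlations of −0.354 to 0.140, so the numbers were not taken as pairs. Depth limits Igfbp2 at 65 weeks and Igfbp6 at both ages.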
